A study of Mus musculus with 14 samples.

Results

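The Dlk1 to Dio3 locus is an imprinted gene cluster on mouse chromosome 12. Its 6 measured genes (Dlk1, Meg3, Rtl1, Rian, Mirg and Dio3) are 6 of the 24054 genes in each deposited table and were taken by name. Imprinted genes are expressed from a single parental allele. At this locus the copy inherited from the father expresses the protein genes Dlk1, Rtl1 and Dio3, and the copy inherited from the mother expresses the long non-coding RNAs Meg3, Rian and Mirg, which run in the same direction and host many small nucleolar RNAs and microRNAs. A methylated control region between Dlk1 and Meg3 keeps the parental copies apart, and mouse embryonic stem cell lines and clones are known to differ in whether they keep the maternal RNAs.

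The locus was selected on these data. Rian and Mirg had among the lowest values in d3ko against d3con and were low in d0ko as well, so the genotype values of all 6 genes are given as a description, without a test. RNA was sequenced in 14 mouse libraries. Day 0 embryonic stem cells were Foxa2 Venus/+ (d0con, 2 libraries) or Foxa2 Venus/Venus (d0ko, 2 libraries). Venus-positive cells of these genotypes, sorted at day 3, gave d3con and d3ko with 3 libraries apiece. Venus replaces the Foxa2 coding region, so ko cells have no intact copy of this endoderm transcription factor. Day 0 cells grew on red fluorescent feeder fibroblasts without LIF and were sorted as feeder-negative, while day 3 cells had been moved onto Wnt3a-secreting feeder cells with 12 ng/ml Activin A. Each genotype is 2 clones of a single parental line. Replicates 1 and 3 came from clones C59 (con) and C9 (ko), and replicate 2 came from clones C63 (con) and C17 (ko), so genotype and clone cannot be told apart beyond 2 clones a side. Venus-negative (d2-FVFn) and Venus-positive (d2-FVFp) cells, with 2 libraries a group, came from a separate, feeder-free line that is homozygous for a Sox17-Cherry reporter and carries a lentiviral doxycycline-inducible Foxa2-Venus fusion, kept with LIF and serum and given 40 ng/ml doxycycline for 48 hours. Because that line differs in background and culture, its levels are set beside the knock-in values without a test.

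Library totals ran from 14142788 to 27278237 expected counts (RSEM's estimates of reads per gene). Foxa2 was listed between 0.11 and 0.19 TPM in d3ko and between 34.8 and 58.6 TPM in d3con, and in the doxycycline line at 2.01 and 2.99 TPM in negative and 160 and 169 TPM in positive cells, as the labels say. TPM is a gene's share of the transcripts after correction for its length, so TPM levels may be compared between genes. A gene is called here at a Benjamini-Hochberg adjusted p under 0.05 and a change of over 2-fold in edgeR's quasi-likelihood test. Of the 6 pluripotency markers 0 were called between d0ko and d0con by edgeR or DESeq2, beside 0.0% of all tested genes by edgeR. The median log2 fold change of the markers was 0.09 against 0.02 over all genes, with 0 of the 6 at an unadjusted p under 0.05. All 6 endoderm markers were called higher in d3con than in d0con (5 by DESeq2), beside 35.2% of all tested genes called in that comparison. Of the 6, Sox17, Hhex and Dkk1 were called lower in d3ko than in d3con (5 of 6 by DESeq2), beside 8.26% of all tested genes.

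In GRCm38, the assembly that mm10 names, the RefSeq genes lie on chromosome 12 in the order Dlk1 (109452485 to 109463336), Meg3 (109540996 to 109571729), Rtl1 (109564900 to 109604418), Rian (109603945 to 109661716), Mirg (109734981 to 109749458) and Dio3 (110279230 to 110281097). All run on the plus strand except Rtl1, whose interval overlaps that of Meg3 by 6830 bases and that of Rian by 474 bases. The library kit keeps no strand, so reads from Rtl1 and from the maternal transcript antisense to it cannot be told apart.

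The promoter windows of the maternal RNAs, placed by their RefSeq starts, are shown because these RNAs were lower in every ko library than in every con library. Rtl1, which was lower as well, had no promoter entry. Each run holds 250 bases before and 50 after the RefSeq start on the plus strand of GRCm38.p6, with CpG pairs, where DNA methylation is placed, in capitals.
Meg3, chr12:109540746-109541045: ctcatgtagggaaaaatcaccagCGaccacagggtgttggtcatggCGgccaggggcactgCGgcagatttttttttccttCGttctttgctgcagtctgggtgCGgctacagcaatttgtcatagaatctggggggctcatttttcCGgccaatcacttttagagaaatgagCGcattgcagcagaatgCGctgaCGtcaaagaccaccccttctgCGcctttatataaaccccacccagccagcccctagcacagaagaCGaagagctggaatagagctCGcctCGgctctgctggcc
Rian, chr12:109603695-109603994: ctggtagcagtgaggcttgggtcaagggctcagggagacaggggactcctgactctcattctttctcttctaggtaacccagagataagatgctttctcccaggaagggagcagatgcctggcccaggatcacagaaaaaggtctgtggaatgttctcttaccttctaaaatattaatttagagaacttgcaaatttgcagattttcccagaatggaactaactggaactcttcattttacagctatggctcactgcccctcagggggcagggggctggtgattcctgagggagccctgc
Mirg, chr12:109734731-109735030: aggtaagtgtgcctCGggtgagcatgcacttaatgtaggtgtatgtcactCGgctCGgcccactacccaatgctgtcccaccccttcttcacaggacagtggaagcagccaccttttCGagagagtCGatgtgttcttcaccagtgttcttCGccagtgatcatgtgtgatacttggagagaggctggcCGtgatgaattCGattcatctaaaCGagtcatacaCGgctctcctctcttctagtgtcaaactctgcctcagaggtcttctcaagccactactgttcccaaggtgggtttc

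The Meg3 window held 13 CpG pairs and the Mirg window 10, against a median of 7 over 32851 RefSeq promoters, while the Rian window held 0. The Mirg window contains the plus-strand microRNA arms miR-668-5p, miR-668-3p and miR-485-3p, and the Rian window lies within the Rtl1 interval. Whether these windows act as promoters was not measured. Methylation was not measured in these libraries. The forkhead motif TGTTTAC was searched on both strands (also as GTAAACA) because Foxa2 is a forkhead factor. It was found in 1 of the 5 locus promoters in the reference table and in 3.65% of all promoters. That promoter was Dlk1's, with 2 matches on the plus strand, shown in capitals. The window of the reference table starts 88 bases inside the RefSeq gene interval given above, so it was built on another of the starts of Dlk1. A match describes the letters and no binding.
Dlk1, chr12:109452573-109452872: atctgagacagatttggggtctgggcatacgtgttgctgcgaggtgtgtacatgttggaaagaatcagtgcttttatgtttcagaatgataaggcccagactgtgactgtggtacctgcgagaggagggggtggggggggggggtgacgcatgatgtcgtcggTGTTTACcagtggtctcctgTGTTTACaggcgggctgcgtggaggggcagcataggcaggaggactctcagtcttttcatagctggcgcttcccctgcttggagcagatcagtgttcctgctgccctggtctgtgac

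The maternal RNAs carry microRNAs. The RefSeq table places 61 microRNA genes between Dlk1 and Dio3, 57 of them on the plus strand. Mirg spans 10, Rian 3 and Meg3 2, and 13 of the 15 in the Rtl1 interval lie on the plus strand, antisense to Rtl1. A mature arm from each host is shown, with the seed (bases 2 to 8, which pairs with targets) in capitals, to name what the host transcripts carry. None of these 5 shared its seed with another mature arm of the locus. The kit does not measure mature microRNAs.
miR-770-5p (Meg3): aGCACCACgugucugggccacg
miR-127-3p (antisense to Rtl1): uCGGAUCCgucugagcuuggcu
miR-136-5p (antisense to Rtl1): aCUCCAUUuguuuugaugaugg
miR-370-3p (Rian): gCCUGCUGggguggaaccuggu
miR-410-3p (Mirg): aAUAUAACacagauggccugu

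The 3 maternal RNAs were present in every con library and near 0 in every ko library, at both days. Meg3, a long non-coding RNA with growth-restraining activity, was listed at 35.95 and 43.96 TPM in d0con replicates 1 and 2. In d0ko it was at 0.31 and 2.21 TPM. These are 0.776% and 5.53% of the d0con mean, and the groups did not overlap. At day 3 Meg3 was at 145.37, 87.84 and 153.91 TPM in d3con replicates 1, 2 and 3. In d3ko it was at 2.01, 0.98 and 0.07 TPM, which is 1.56%, 0.759% and 0.0542% of the d3con mean. Replicate 2 of d3con, from clone C63, was the lowest of the d3con libraries. Both ko clones were low, and the d0ko library with the higher Meg3 level was from clone C17, while at day 3 the highest and the lowest were both from clone C9. Summed over libraries, Meg3 had 1866 counts in d0con and 67 in d0ko, a ratio per library total of 34.6 (95% counting interval 27.2 to 44.9), and 9885 counts in d3con and 58 in d3ko, a ratio of 164 (126 to 216). These intervals cover counting error only, since reads are not independent molecules, and the ko libraries differed among themselves by more than that.

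Rian, the host of a large set of C/D box small nucleolar RNAs, followed Meg3. It was at 3.81 and 4.63 TPM in d0con and at 0.02 and 0.20 TPM in d0ko. In d3con it was at 12.79, 7.94 and 15.41 TPM, and in d3ko at 0.06, 0 and 0 TPM. The d3ko libraries held 2 Rian counts in all against 1536 in d3con, a ratio of 737 with a counting interval of 204 to 6090. At day 0 the sums were 10 and 328 counts, a ratio of 40.8 (21.9 to 85.9).

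Mirg, the host of the microRNA cluster at the distal end of the maternal RNAs, was at 1.13 and 2.83 TPM in d0con and at 0 and 0.06 TPM in d0ko. It was at 6.94, 5.07 and 5.47 TPM in d3con and listed at 0 in all 3 d3ko libraries. Against a floor of 3 counts over the group, Mirg was at least 82.5-fold lower in d3ko than in d3con. At day 0 a single count in d0ko stood against 53 in d0con, a ratio of 65.9 with a counting interval of 11.3 to 2650.

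All 6 genes passed the filter of the knock-in fit (at least 2 libraries with 1 CPM, the count relative to library size), Rian, Mirg and Rtl1 through con libraries alone and Dio3 through ko libraries alone. The fitted log2 fold changes of d0ko over d0con were -5.12 ± 0.98 (SE) for Meg3, -5.33 ± 0.86 for Rian and -5.76 ± 1.03 for Mirg. For d3ko over d3con they were -7.20 ± 0.89, -9.24 ± 0.91 and -9.38 ± 1.04. With counts this near 0 the fitted size depends on the prior count, which was not varied. It also moved with the libraries. Without d0ko replicate 2 the day 0 values became -6.94, -7.58 and -8.01. Without d3ko replicate 1 the day 3 value of Rian became -11.95. In every one of these fits the ko side was the lower.

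**Figure D1:**
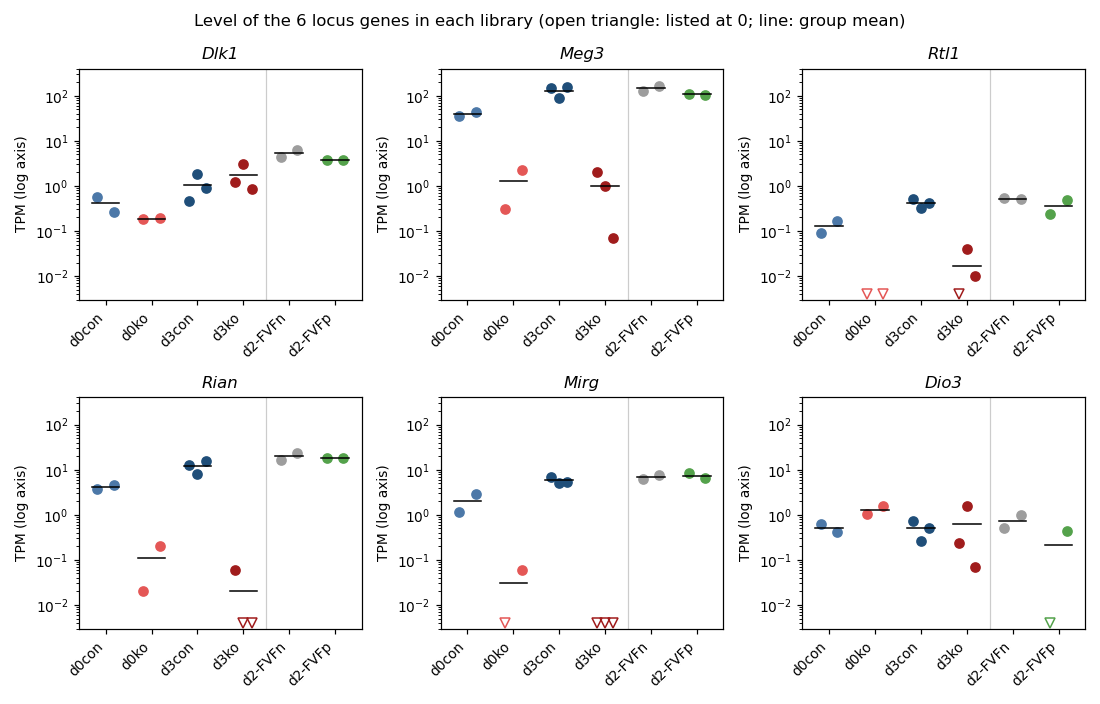
TPM of each locus gene on a log axis in all 14 libraries, grouped, with points for libraries, open triangles for libraries listed at 0 and lines for group means; the grey line parts the knock-in line from the doxycycline line. Meg3, Rian and Mirg are low in d0ko and d3ko and present in the other 4 groups, while Dlk1 and Dio3 show no such split.

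Where the maternal RNAs were present, their proportions varied between lines and libraries. Over the 5 con and 4 doxycycline libraries, the TPM of Meg3 was 5.93 to 11.4 times that of Rian (median 9.44). This ratio was 9.44 to 11.4 in the con and 5.93 to 7.72 in the doxycycline libraries, without overlap. The TPM of Rian was 1.57 to 3.37 times that of Mirg (median 2.64), and that of Meg3 was 13.3 to 31.8 times that of Mirg (median 20.4). Meg3 had the highest level and Mirg the lowest of the 3 in all 9 libraries, which is their order along the direction of transcription.

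Other rows of the locus held few counts. Between the Dlk1 start and the Dio3 end the tables have 75 rows, 69 of them besides the 6 genes, and 66 are microRNA or small nucleolar RNA rows, of which 16 had any count. The row Mir1906-1 lies within the Meg3 interval and held 67.24 counts over the 5 con libraries and 1.04 over the 5 ko libraries, but it has a near-identical copy row and its reads are uncertain. The other 65 small RNA rows together held 13.43 counts in the con libraries, 0 in the ko libraries and 12.24 in the 4 doxycycline libraries. The non-coding row 6430411K18Rik had 3.67 counts in the con, 0 in the ko and 14.45 in the doxycycline libraries. Of the remaining rows, 3110009F21Rik had 0 and 1 counts in con and ko, and Dio3os, a non-coding gene beside Dio3, had 3 and 7.

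The protein genes did not share a pattern. Rtl1, a retrotransposon-derived gene with a role in placental vessels, was at 0.09 and 0.17 TPM in d0con and at 0 in both d0ko libraries. It was at 0.50, 0.32 and 0.42 TPM in d3con and at 0, 0.04 and 0.01 TPM in d3ko. Its 15 counts in d0con put it at least 6.22-fold higher there than in d0ko, against a floor of 3 counts over the group, and at day 3 its 77 counts in d3con stood against 3 in d3ko, a ratio of 24.6 (8.12 to 122). The values assigned to Rtl1 thus went with Meg3 and Rian, whose intervals overlap it, on counts without strand.

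Dlk1, a membrane protein of the Notch ligand family that restrains differentiation, was low in the knock-in line. It was at 0.56 and 0.26 TPM in d0con and at 0.18 and 0.19 TPM in d0ko. At day 3 it was at 0.46, 1.87 and 0.88 TPM in d3con and at 1.23, 3.13 and 0.85 TPM in d3ko, so the day 3 groups overlapped, and the highest library of each genotype was replicate 2. Its fitted log2 fold change of ko over con was -1.20 ± 0.84 (SE) at day 0 and 0.70 ± 0.63 at day 3.

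Dio3, the deiodinase that inactivates thyroid hormone, was at 0.61 and 0.42 TPM in d0con and at 1.03 and 1.57 TPM in d0ko. It was at 0.74, 0.26 and 0.52 TPM in d3con and at 0.24, 1.56 and 0.07 TPM in d3ko. The day 0 groups did not overlap, with ko the higher, and the d3ko libraries spanned those of d3con. Its fitted log2 fold change of ko over con was 1.28 ± 1.11 at day 0 and 0.23 ± 0.93 at day 3.

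**Figure D2:**
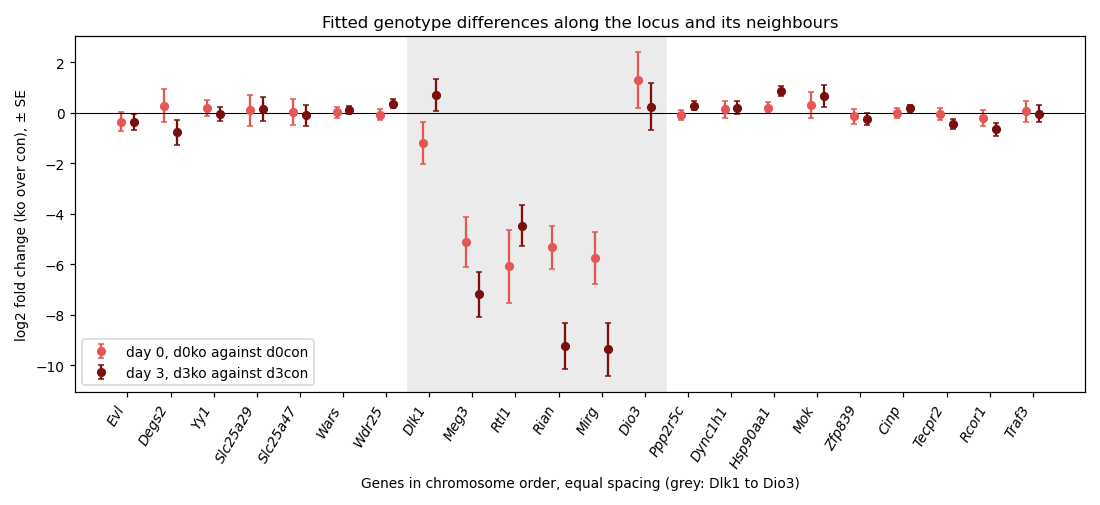
Fitted log2 fold change of ko over con, with SE bars, for genes in chromosome order at equal spacing, at day 0 (light) and day 3 (dark); the grey band holds the 6 locus genes. Meg3, Rtl1, Rian and Mirg lie between -9.38 and -4.47, and the neighbour genes lie between -0.77 and 0.86.

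Genes on either side of the locus were compared to see how far along the chromosome the difference reached. Of 17 neighbour genes, 16 were tested, and 0 were called in d3ko against d3con or in d0ko against d0con by edgeR. Over all 13899 tested genes 8.26% were called at day 3 and 0.0% at day 0, so the day 0 count does not set the neighbours apart. At an unadjusted p under 0.05 there were 2 neighbour genes at day 3 and 0 at day 0, and DESeq2 called 0 at either day. Their median log2 fold change was 0.04 at day 3 and 0.02 at day 0, beside 0.02 over all genes at both days. Wars, which charges the tryptophan tRNA, averaged 130 TPM in d3ko and 121 TPM in d3con, and Wdr25, upstream of Dlk1, averaged 9.3 and 7.26 TPM. On the Dio3 side, Ppp2r5c, a phosphatase subunit gene, averaged 135 TPM in d3ko and 104 TPM in d3con. The heat shock gene Hsp90aa1 had the highest neighbour value, at 0.86 ± 0.19 on the log2 scale (adjusted p = 0.0229 with edgeR), under the 2-fold limit. Hsp90aa1 passed that limit and was the 1 neighbour gene called without replicate 2 of d3con or without replicate 2 of d3ko. Over 361 chromosome 12 genes the median deviation of a library from the mean of the 10 knock-in libraries lay between -0.05 and 0.05 on the log2 scale, in con and ko libraries alike.

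Within the 10 knock-in libraries the locus RNAs were set against all 13899 tested genes. All 5 ko libraries lay below all 5 con libraries for 41 genes (0.295%), and 4 of these were Meg3, Rian, Mirg and Rtl1. All 5 lay above for 87 genes (0.626%), with no locus gene among them. The same libraries chose the locus, so this is a description. On the log2(TPM + 1) scale the gap between the lowest con and the highest ko library was 3.52 for Meg3, 2.0 for Rian and 1.01 for Mirg, the 3 widest of the 41. The next were 0.45 for Tradd, an adaptor of the tumour necrosis factor receptor, and 0.20 for the ubiquitin ligase gene March9. Rtl1, with its low level, had a gap of 0.07. In the other direction the widest gaps were 0.47 for the sorbitol dehydrogenase gene Sord, 0.36 for E330020D12Rik, 0.32 for Trim63, 0.31 for Mybl1 and 0.29 for Ppfibp2.

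**Figure D3:**
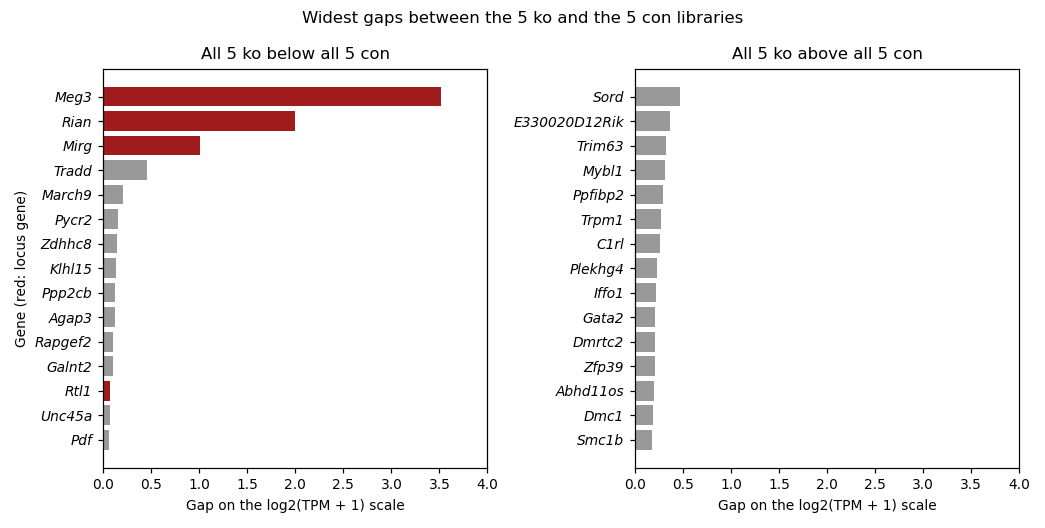
Gap on the log2(TPM + 1) scale between the 5 ko and the 5 con libraries for the 15 widest genes with ko below con (left) and with ko above con (right), with locus genes in red. Meg3 (3.52), Rian (2.0) and Mirg (1.01) exceed the widest gap in the other direction (0.47).

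The genes whose pattern was most like that of the maternal RNAs were found by Pearson's r between log2(TPM + 1) of each of 12525 genes and the mean of Meg3, Rian and Mirg, over the 10 knock-in libraries. They were Klhl15 (r = 0.934), Babam1 (0.931), Zdhhc8 (0.925), Nr2f6 (0.92), Ncln (0.913), Tradd (0.905), Trappc5 (0.897) and Rapgef2 (0.893). The libraries fall into con and ko, so these values mostly describe that split. The sizes differed, since Babam1 ran from 108 to 117 TPM in ko and from 120 to 162 TPM in con. Of the 8 genes 4 lie on chromosome 8, which holds 5.21% of the genes ranked. The median deviation of 561 chromosome 8 genes was -0.43 (log2) in d3ko replicate 2 and between 0.00 and 0.12 in the other 9 knock-in libraries, and its part in this ranking was not tested.

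From day 0 to day 3 the maternal RNAs had higher levels in con cells, while those in ko cells were near 0 at both days. The d3con libraries took part in choosing the locus, so these are values without a test. From d0con to d3con the fitted log2 fold change was 1.5 ± 0.76 (SE) for Meg3, 1.31 ± 0.63 for Rian and 1.37 ± 0.65 for Mirg, and the TPM ranges of the groups did not overlap for any of them. From d0ko to d3ko Meg3 gave -0.58 ± 0.95, on 67 and 58 counts.

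The 3 protein genes were tested over the days. In con cells 0 of the 3 were called from d0con to d3con, with 0 at an unadjusted p under 0.05 and 0 called by DESeq2, beside 35.2% of all tested genes. Dlk1 had a log2 fold change of 1.19 ± 0.75 (edgeR adjusted p = 0.206) and Dio3 of -0.22 ± 1.04 (adjusted p = 0.868). Rtl1, at 1.54 ± 0.75, had passed the filter through d3con libraries alone, so that its place among the tested genes depended on the group where it was high. In ko cells 1 of the 3 was called from d0ko to d3ko, beside 17.3% of all tested genes. Dlk1 rose from 0.185 TPM (SD 0.00707, n = 2) to 1.74 TPM (SD 1.22, n = 3), or 3.09 ± 0.82 as log2 fold change and SE (adjusted p = 0.0215 with edgeR), and all 3 d3ko libraries lay above both d0ko libraries. The call was lost without d0ko replicate 1 (adjusted p = 0.138) and without d0ko replicate 2 (adjusted p = 0.123), at log2 fold changes of 3.10 and 3.08. Dlk1 had reached 1 CPM in 3 d3con, 3 d3ko and 1 d0con libraries and in 0 d0ko libraries. Its place among the tested genes thus depended on the day 3 groups, where it was high, so nothing is read from its call. That Dlk1 was called in ko and not in con cells does not show that the genotypes differ, and the difference was not tested. Rtl1 gave 3.16 ± 1.64 (adjusted p = 0.175) on 0 and 3 counts, and Dio3 gave -1.27 ± 0.98 (adjusted p = 0.35), which became -3.27 and was called (adjusted p = 0.0164) without d3ko replicate 2. Dio3 had passed the filter through 2 d0ko and 1 d3ko libraries alone, so nothing is read from that call. Both day contrasts share their libraries with the genotype values above.

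Among the other thyroid hormone genes, the receptor gene Thra rose from 3.0 to 12.1 TPM in con cells and from 2.65 to 7.42 TPM in ko cells, by 1.80 ± 0.23 (SE, adjusted p = 0.000458 with edgeR) and 1.31 ± 0.22 (0.00399) on the log2 scale. Slc16a10 rose in con cells by 1.85 ± 0.50 (0.0134). Dio1, Dio2 and Thrb did not pass the filter on low counts.

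No locus gene passed the call in the doxycycline line, where Foxa2 itself was induced. Of the 6 genes 5 were tested, since Dio3 did not pass the filter, and 0 were called in d2-FVFp against d2-FVFn by edgeR, beside 8.43% of 12943 genes. DESeq2 called 0, and 2 were at an unadjusted p under 0.05. Meg3 was at 127.93 and 163.33 TPM in d2-FVFn and at 109.71 and 105.46 TPM in d2-FVFp, with both positive libraries below both negative ones. This was a difference of -0.49 ± 0.15 on the log2 scale (SE, adjusted p = 0.0594 with edgeR), and the adjusted p was 0.0321 with DESeq2, 0.0089 with no filter on low counts and 0.425 without d2-FVFn replicate 2. Dlk1 was at 4.47 and 6.34 TPM in d2-FVFn and at 3.71 and 3.82 TPM in d2-FVFp, a log2 fold change of -0.58 ± 0.24 (adjusted p = 0.142). Rian was at 16.57 and 23.30 TPM and then 17.79 TPM in both positive libraries, a log2 fold change of -0.21 ± 0.19 (adjusted p = 0.481). Mirg was at 6.27 and 7.77 TPM and at 8.25 and 6.47 TPM (0.01 ± 0.31, adjusted p = 0.979), and Rtl1 at 0.55 and 0.50 TPM and at 0.24 and 0.49 TPM (-0.58 ± 0.51, adjusted p = 0.462). Dio3 was at 0.50 and 0.99 TPM in d2-FVFn and at 0 and 0.43 TPM in d2-FVFp, on at most 19 counts a library.

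Set side by side over the 6 groups, mean Meg3 levels ran from 146 TPM in d2-FVFn through 129 in d3con and 108 in d2-FVFp, whose libraries overlapped from neighbour to neighbour, to 40.0 in d0con, 1.26 in d0ko and 1.02 in d3ko. The d0con libraries overlapped with neither neighbour, and d0ko and d3ko overlapped. Dlk1 was ordered otherwise, from 5.4 TPM in negative and 3.76 TPM in positive doxycycline-line cells to 1.74 in d3ko, 1.07 in d3con, 0.41 in d0con and 0.185 in d0ko, with overlaps between d3ko and d3con and between d3con and d0con. For Dio3 the d0ko mean of 1.30 TPM was the highest, and each of the other groups overlapped with the next, between 0.745 and 0.215 TPM.

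Knock-in cells had been grown with feeder fibroblasts, so 8 fibroblast markers (Col1a1, Col1a2, Col3a1, Dcn, Lum, Postn, Thy1 and Pdgfrb) were read in each library. In these bulk samples fewer cells of a type and less RNA per cell cannot be told apart. The summed marker level was 12.5 and 15 TPM in d0con, 38.3 and 137 TPM in d0ko, 60.2 to 308 TPM in d3con, 136 to 371 TPM in d3ko and 2.73 to 4.07 TPM in the feeder-free doxycycline line. Day 0 con libraries had less of the markers than day 0 ko libraries and more Meg3. The doxycycline libraries, of another line and culture, had the least of the markers and at least 105.46 TPM of Meg3. The part of feeder RNA in the genotype difference was not tested. Of the 8 markers 0 were called between genotypes at either day by edgeR or DESeq2, beside 0.0% and 8.26% of all tested genes by edgeR at day 0 and day 3. At an unadjusted p under 0.05 there were 5 of the 8 at day 0, beside 195 of all 13899 tested genes. At day 3 there was 1 of the 8, beside 3878 of all tested genes. The median log2 fold change of the markers was 2.56 at day 0 and 0.42 at day 3. Between the days 5 of the 8 were called higher in d3con than in d0con, with a median of 3.71, beside 35.2% of all tested genes called. The maternal RNA levels of d3con were higher as well. From d0ko to d3ko 2 of the 8 were called higher, beside 17.3% of all tested genes called. The part of the markers in these day differences was not tested.

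In d0ko, the library with 2.21 TPM of Meg3 had 17.41 TPM of Dcn, a matrix proteoglycan of fibroblasts, and that with 0.31 TPM had 4.41 TPM. In d3ko, Meg3 at 2.01, 0.98 and 0.07 TPM stood beside Dcn at 3.99, 1.38 and 0.57 TPM, while the summed markers were 298, 136 and 371 TPM, with the lowest Meg3 level in the library with the most of the markers. Dcn was singled out after its values were seen. The part of feeder RNA in the remaining Meg3 reads was not tested.

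**Figure D4:**
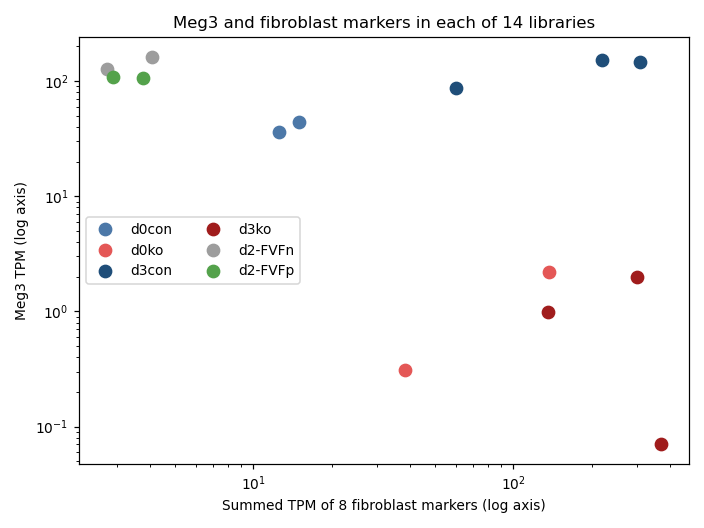
Meg3 TPM against the summed TPM of 8 fibroblast markers, both on log axes, with a point for each of the 14 libraries. The 5 ko libraries lie at or under 2.21 TPM of Meg3 and the other 9 at or above 35.95 TPM, across marker sums that overlap between con and ko at day 3.

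Genes that set or keep imprints were read beside the locus. Zfp57 and Trim28 protect methylated control regions, Dnmt1 and Uhrf1 copy methylation at replication, Dnmt3a, Dnmt3b and Dnmt3l place it, and Tet1 and Tet2 take part in its removal. At day 0, where the maternal RNAs were already low in ko cells, 0 of the 15 regulators were called by edgeR or DESeq2. Of all tested genes edgeR called 0.0% there, so this count does not set the regulators apart. At an unadjusted p under 0.05 there were 0 regulators, beside 195 of all 13899 tested genes, and their log2 fold changes lay between -0.38 and 0.27. At day 3, 5 of the 15 were called higher and 1 lower in d3ko, beside the 8.26% of all genes, with a list median of 0.40. Dnmt3l was higher in d3ko than in d3con by 4.68 ± 0.60 on the log2 scale (edgeR adjusted p = 0.00726). Its mean was 721 TPM in d0con and 708 TPM in d0ko, against 6.83 TPM in d3con and 176 TPM in d3ko. Both genotypes thus had less Dnmt3l at day 3 than at day 0. Dppa3, Tet2, Zfp57 and Tet1 were called higher in d3ko than in d3con by 3.43, 2.51, 1.70 and 1.60. Dnmt3b was called lower, at -2.17 ± 0.31 (adjusted p = 0.00985), and Dnmt1 gave 0.23 ± 0.12 (adjusted p = 0.266). The pluripotency markers moved with them, since Sox2, Zfp42, Klf4 and Dppa5a, 4 of 6, were called higher in d3ko, and their part in this was not tested. Of the 6 regulator calls 0 were left without both 75-base libraries or with replicates 1 and 3 of a clone summed, 1 was left in a fit of only these groups, 3 without d3con replicate 1 and 2 without d3con replicate 3.

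Imprinted genes elsewhere in the genome were not low together in ko cells. Of 16 such genes 0 were called at day 0, beside 0.0% of all tested genes, so this count does not set them apart. At an unadjusted p under 0.05 there was 1, DESeq2 called 0, and their median log2 fold change was 0.25. At day 3, 1 was called higher and 2 lower, or 3 of 16, beside 8.26% of all tested genes, with a median of -0.19. The lower ones were the growth factor receptor adaptor gene Grb10 (-2.48 ± 0.41, edgeR adjusted p = 0.0123) and Nnat (-2.27 ± 0.56, 0.0337), and the higher was Plagl1 (2.58 ± 0.52, 0.0199), a zinc finger gene. These calls changed with the libraries and the fit, since 0 were left without d3con replicate 3, without both 75-base libraries, with replicates 1 and 3 summed or with only the 2 groups compared, 1 without d3con replicate 1, d3ko replicate 1 or d3ko replicate 3, and 5 were made without d3con replicate 2. The paternally expressed gene Mest separated clones within the con genotype. It was at 0.52 TPM in d0con replicate 2 and 1.20 TPM in d3con replicate 2, both from clone C63, and at 57.43, 198.53 and 184.01 TPM in the 3 con libraries of clone C59. Meg3, Rian and Mirg were present in both of these con clones.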

How the data were processed

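The authors aligned 50-base or 75-base single reads to mm10 with STAR and quantified each library with RSEM; versions are not given in the sources used here. The deposited expected counts are RSEM's unscaled estimates of reads per gene, and the deposited TPM values were scaled by the authors with RSEM for length and library total. Libraries were made with a low-input kit without strand. Groups and replicate numbers came from the sample titles, and clones from the study's methods.

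Expected counts were rounded, filtered at 1 CPM in at least 2 libraries, scaled with TMM and tested with edgeR 4.0.16 (quasi-likelihood, R 4.3.3) with Benjamini-Hochberg adjustment over all genes, the 10 knock-in and the 4 doxycycline libraries apart. Calls needed an adjusted p under 0.05 and a log2 fold change beyond 1 in either direction. DESeq2 1.42.0, other scaling, no filter, blocks, single groups and left-out replicates were alternatives. Effective lengths show 75-base reads in replicate 1 of d3con and of d3ko. The procedure was tested on simulated data. Intervals are exact at 95%. Standard errors were log2 fold change over root F.

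The locus genes and the gene lists were chosen with earlier results of these data known. Named were the 6 genes and the other rows between Dlk1 and Dio3, Foxa2, the called genes of each list with at most 4 others (those called only over the days or with doxycycline are mostly left as counts or out), the 8 genes most alike, and the 5 widest gaps in each direction. Positions and sequences are RefSeq's for GRCm38.p6, the build of the files; 5 of the 6 genes had a promoter entry. Same-numbered libraries 1 and 2 share a clone across the days within a genotype, and the correlations of their deviations were 0.02 and -0.01 in con and -0.05 and 0.05 in ko. Across genotypes, where numbers do not mark a shared clone, they were 0.54, 0.29 and -0.01 at day 3 (replicate 1 holding the 75-base libraries) and 0.14 and 0.14 at day 0. No label says whether replicates are separate cultures, so p-values measure only the spread between these libraries. A gene of the lists is not reported here.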

Additional observations from a re-analysis of the deposited data

How the results depend on the processing

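The ko side stayed the lower for Meg3, Rian, Mirg and Rtl1 at both days in every alternative that gave a value for the gene. At day 3 these numbered 16 for Meg3, Rian and Mirg and 12 for Rtl1. At day 0 they numbered 14 for Meg3 and Rian, 13 for Mirg and 11 for Rtl1. On the difference of mean log2(TPM + 1), which understates low genes, the day 3 values were -6.09, -3.63, -2.76 and -0.47, and the day 0 values -4.31, -2.23, -1.47 and -0.18. The count of locus genes called between d2-FVFp and d2-FVFn was 0 in 8 alternatives, and that of protein genes called from d0con to d3con was 0 in 12. Of these 12, only 9 gave a value for Rtl1 and 11 for Dio3. From d0ko to d3ko the count of 1 ranged from 0 to 2 when single replicates were left out. Neighbour calls at day 3 ranged from 0 to 1, regulator calls from 2 to 6 and other imprinted calls from 0 to 5 over the left-out replicates. With replicates 1 and 3 summed, regulator and other imprinted calls were both 0; with only the 2 groups compared they were 1 and 0; without both 75-base libraries, an alternative chosen after seeing the data, they were 0 and 0. The cause was not tested, and these settings hold fewer libraries. Genes with ko and con libraries apart numbered 128 with TPM and 134 with TMM-scaled CPM, and 7 of the 8 genes most alike stayed with a pseudocount of 0.1.

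Directions turned for values near 0 that were not called. Dio3 from d0con to d3con was 0.31 with the replicate block, and ran from -0.61 to 0.10 over the left-out replicates. In d2-FVFp against d2-FVFn, the same ranges were -0.41 to 0.07 for Rian and -0.15 to 0.20 for Mirg. The replicate block, and the replicate block by clone, changed no call of a locus gene. For Dlk1 from d0ko to d3ko the block by number gave 3.17 (adjusted p = 0.0261) and that by clone 3.05 (0.026). In the doxycycline line the numbers are only shared, with correlations of 0.28 for both pairs, and with them as a block Meg3 gave -0.48 (adjusted p = 0.00195) and Dlk1 -0.57 (0.0309), both under the 2-fold limit. Depth limits Rtl1, Dio3, Mirg and Dlk1, whose highest counts in a library were 31, 37, 103 and 288.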

Other observations

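The libraries also differed by chromosome in ways that crossed the groups. Over 353 chromosome 14 genes the median deviation from the mean of the 10 knock-in libraries was 0.22 (log2) in d0con replicate 1 and between -0.05 and 0.01 in the other 9, beside the -0.43 of chromosome 8 genes in d3ko replicate 2. On the other 16 autosomes, chromosome 12 set apart, the medians lay between -0.10 and 0.10.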
